A study of Mus musculus with 4 samples.

Results

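The Fc gamma receptors bind the constant part of IgG antibodies on the surface of myeloid and NK cells. The members described here are 5 genes, which were matched by symbol, and all 5 were among the 12584 genes of the deposited table. They are the activating receptors Fcgr1, Fcgr3 and Fcgr4, the inhibitory receptor Fcgr2b, and Fcer1g, the signalling chain shared by the activating receptors. Activating against inhibitory receptors were compared in each annotated cell class and in each library.

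The data are single-cell RNA counts of live CD45+ cells sorted from YUMM1.7 RTT tumours, a mouse melanoma line (Braf V600E, Cdkn2a-/-) that carries the ovalbumin antigen and resists BRAF inhibition. The hosts were Rag2-/- mice of 6 to 12 weeks of age, and all groups received ovalbumin-specific OT-1 CD8+ T cells (ACT) on day 7 and were collected on day 10, 72 h later. CTRL tumours carried an mCherry control vector and received no drug by the labels. IRF3/7 tumours overexpressed IRF3 and IRF7 in the cancer cells from an SFFV promoter, as a bulk-sorted population. COX2i tumours carried mCherry and were treated with celecoxib, an inhibitor of the COX2 enzyme, at 30 mg per kg by mouth each day from day 3. COX2i + 5-AZA tumours also received 5-azacytidine, an inhibitor of DNA methyltransferases, at 1 mg per kg every 3 days. Each group was 1 library made from a pool of 3 tumours, so no difference between groups has a replicate check and no p-value is given.

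An activating receptor passes its signal through the ITAM motif of the Fcer1g chain to Src family kinases and Syk, which can start phagocytosis, cytokine release and killing of antibody-coated cells. Fcgr2b carries an ITIM motif, which recruits the phosphatase SHIP1 (Inpp5d) and dampens that signal. Macrophages and monocytes carry both kinds, mature mouse NK cells are known for Fcgr3, and dendritic cells are known for Fcgr2b. Rag2-/- hosts have no B cells and make no antibody of their own. The sort used an Fc-block antibody against CD16/32, the proteins of Fcgr3 and Fcgr2b. It acts on protein, and its effect on the transcripts was not tested.

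The 4 libraries held 34447 cells. The IRF3/7 library was the shallowest, with a median of 3168 UMIs (unique molecular identifiers, 1 per counted RNA molecule) per cell against 6039.5 to 7502 in the others. Between 28.1% and 31.7% of the cells of a library had a droplet barcode that also occurred in another library. Monocytes and macrophages were 79.6% to 87.7% of cells in each library, but their make-up differed. Monocytes were 1.83% of them in CTRL, 91.3% in IRF3/7, 7.56% in COX2i and 53.2% in COX2i + 5-AZA.

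On the GRCm38 build, Fcgr2b (ENSMUSG00000026656, chromosome 1, 170958617 to 170976547, minus strand), Fcgr4 (ENSMUSG00000059089, 171018920 to 171029761, plus strand), Fcgr3 (ENSMUSG00000059498, 171051174 to 171064935, minus strand) and Fcer1g (ENSMUSG00000058715, 171229572 to 171234365, minus strand) lie in 1 cluster on chromosome 1. Fcgr1 (ENSMUSG00000015947, 96282909 to 96293969, minus strand) lies apart, on chromosome 3. The longest open reading frames of Fcgr3 and Fcgr2b were 87.4% identical over 738 aligned bases, with 99.0% in the best window of 300 bases and a longest identical run of 129 bases. The other pairs of receptors were 64.6% to 68.2% identical. The probes were not checked, so how far reads of Fcgr3 and Fcgr2b could be exchanged was not tested. The closing section also gives A:I without Fcgr3. That value cannot settle the question, because reads of Fcgr3 counted as Fcgr2b would remain in it.

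The upstream sequences of Fcgr1 and Fcgr4 are shown because these are the members that differed most between libraries. Each is the 250 bases before the start site, from RefSeq on GRCm38.p6, written 5′ to 3′ on the strand of the gene, with motif matches in capitals. Fcgr1 is at chr3:96293970-96294219, minus strand, and Fcgr4 at chr1:171018676-171018925, plus strand.
Fcgr1: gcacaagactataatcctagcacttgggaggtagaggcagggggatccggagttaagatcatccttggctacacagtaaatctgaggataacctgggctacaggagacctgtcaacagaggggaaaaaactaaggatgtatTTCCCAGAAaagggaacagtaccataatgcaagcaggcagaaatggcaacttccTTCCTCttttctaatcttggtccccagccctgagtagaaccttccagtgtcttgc
Fcgr4: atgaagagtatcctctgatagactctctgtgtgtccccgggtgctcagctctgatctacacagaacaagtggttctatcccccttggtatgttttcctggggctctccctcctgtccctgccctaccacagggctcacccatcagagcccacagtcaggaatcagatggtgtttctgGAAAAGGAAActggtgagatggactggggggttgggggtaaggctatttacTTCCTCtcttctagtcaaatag
Capitals mark 3 motifs that were searched on both strands. They were the GAS motif of the interferon-γ response (TTCNNNGAA), the core of the ISRE motif of interferon regulatory factors (TTTC and TTTC with any 2 bases between them) and a short ETS motif (GAGGAA). Fcgr1 held a GAS match, TTCCCAGAA, at 109 bases before the start, and an ETS match as TTCCTC at 55 bases. Fcgr4 held an ISRE core match, GAAAAGGAAA on the reverse strand, at 73 bases, and an ETS match at 22 bases. Neither Fcgr3 nor Fcgr2b nor Fcer1g held the GAS or ISRE letters in this window, and of these only Fcgr3 held the ETS letters. Among 32851 promoter windows of the same length, 7.02% held the GAS letters, 2.98% the ISRE core and 23.3% the ETS letters. A match is a run of letters and was not read as a site.

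All values below are CPM, counts per 1000000, that is the UMIs of a gene scaled to that total of UMIs over the cells considered. Parentheses after a value give an exact 95% interval, which covers counting error only and not the spread between tumours or libraries. Probes differ in efficiency between genes, so levels are compared between cells and libraries and not between genes. Within monocytes and macrophages together, the activating receptors Fcgr1 and Fcgr4 were highest in the IRF3/7 library, and the inhibitory Fcgr2b was lowest there by CPM. The rank of Fcgr2b depends on the scaling. With median-of-ratios size factors, which scale to the median gene, its log2 ratio against CTRL was -0.31 in IRF3/7 and -0.51 in COX2i.

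Fcgr1, the high-affinity receptor, was at 594 CPM (587 to 600) in CTRL, 719 (712 to 726) in COX2i, 964 (957 to 971) in COX2i + 5-AZA and 2152 (2131 to 2174) in IRF3/7. No pair of libraries overlapped in its counting interval, and how many other genes did the same was not counted. Fcgr4, the receptor for IgG2 subclasses on monocytes and macrophages, was at 270.0 CPM (266 to 274) in CTRL, 329.5 (325 to 334) in COX2i, 1192 (1184 to 1200) in COX2i + 5-AZA and 2079 (2058 to 2100) in IRF3/7. IRF3/7 and COX2i + 5-AZA thus stood far above the other libraries. Fcgr3, the low-affinity receptor, differed less. It was at 1081 CPM (1065 to 1096) in IRF3/7, 1274 (1264 to 1283) in CTRL, 1276 (1267 to 1285) in COX2i and 1736 (1727 to 1746) in COX2i + 5-AZA, and CTRL and COX2i overlapped. Fcgr2b was at 1033 CPM (1018 to 1048) in IRF3/7, 1300 (1291 to 1309) in COX2i, 1627 (1617 to 1636) in COX2i + 5-AZA and 1814 (1803 to 1826) in CTRL. Fcer1g ran from 3157 CPM (3142 to 3172) in CTRL and 3242 (3228 to 3257) in COX2i to 3614 (3600 to 3628) in COX2i + 5-AZA and 4387 (4356 to 4418) in IRF3/7.

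**Figure D1:**
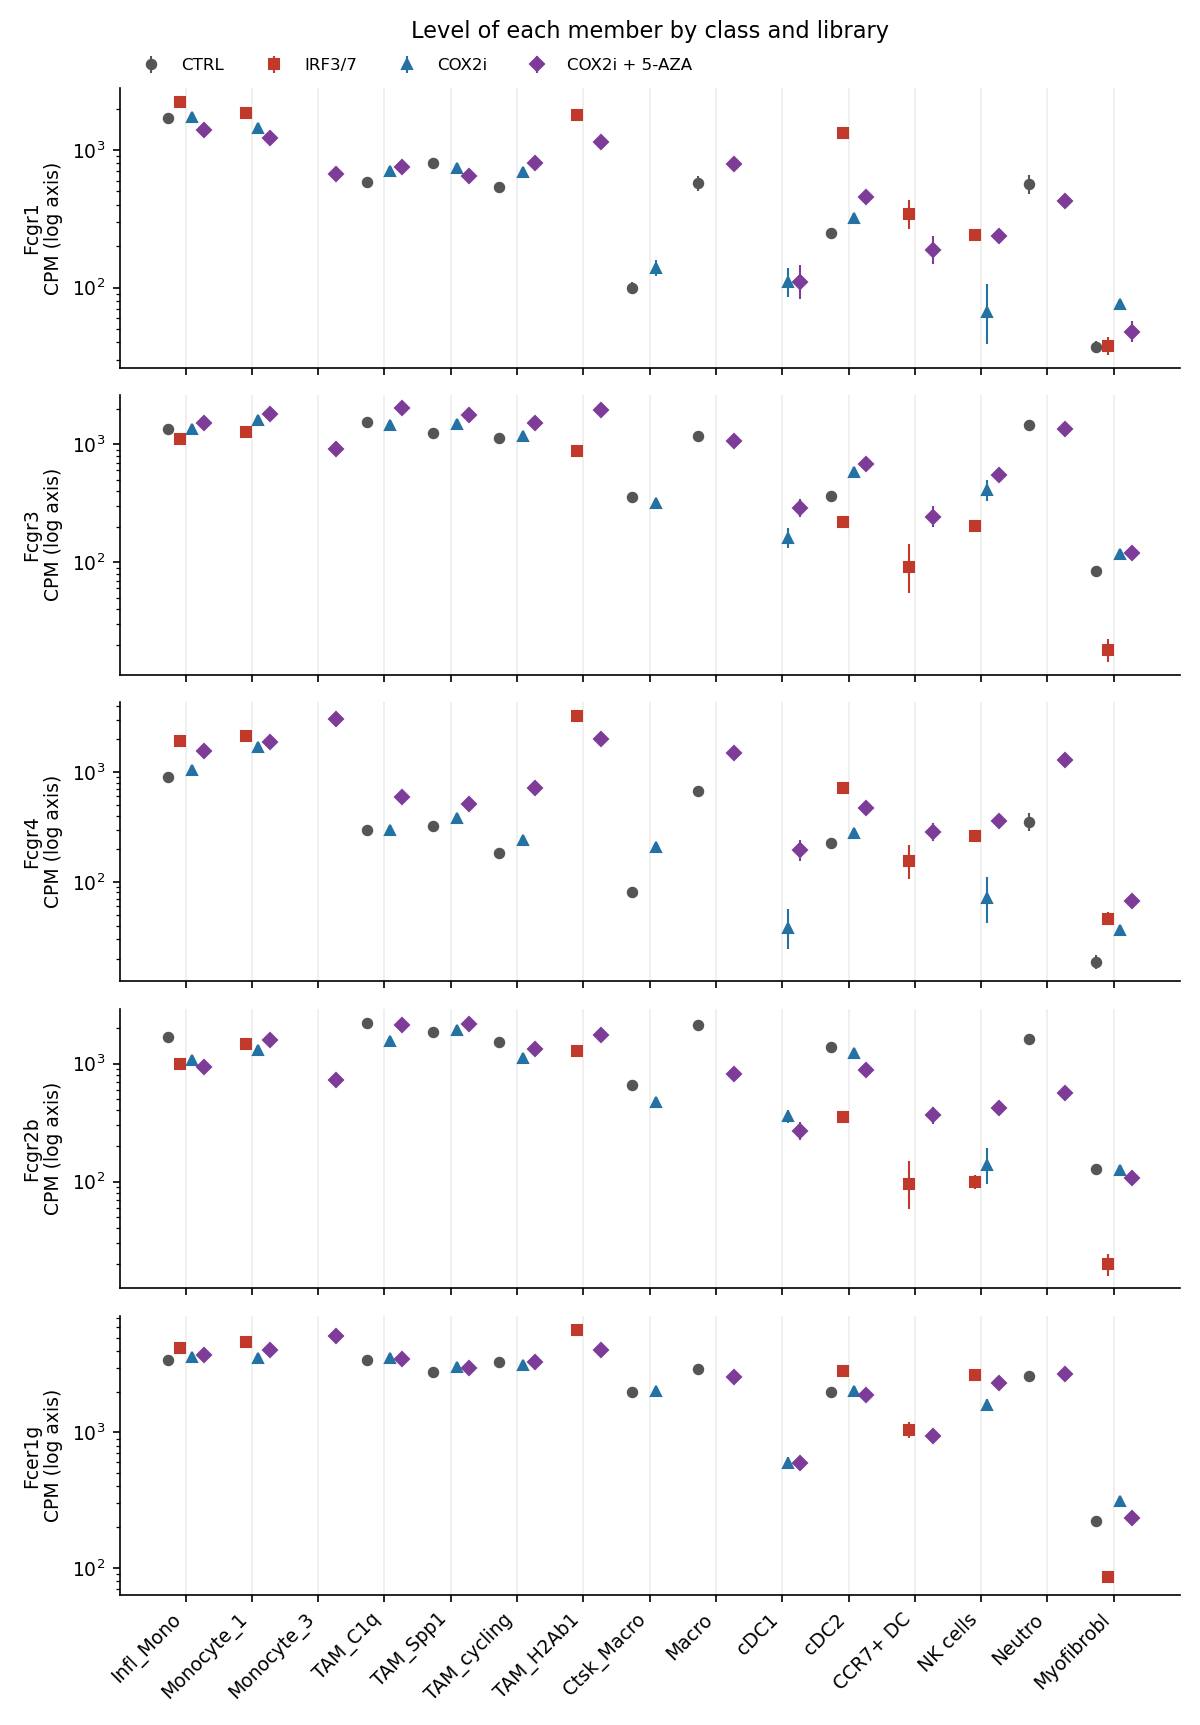
CPM of each member on a log axis for every annotated class with at least 50 cells in a library, by library. Points are CPM of summed UMIs and bars exact 95% counting intervals, and Fcgr4 in IRF3/7 reaches 3254 CPM in TAM_H2Ab1 against 18.8 CPM in the non-immune Myofibrobl class of CTRL.

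As log2 ratios in IRF3/7 against CTRL, Fcgr4 was at 2.94 (2.92 to 2.97), Fcgr1 at 1.86 (1.84 to 1.88), Fcer1g at 0.47 (0.46 to 0.49), Fcgr3 at -0.24 (-0.26 to -0.21) and Fcgr2b at -0.81 (-0.84 to -0.79). Past a log2 ratio of 1 there were 2 of 5 members higher, Fcgr1 and Fcgr4, and 0 lower. Of all genes whose UMIs summed to 200 or more over the pair of libraries, 8.22% were that much higher and 29.1% that much lower. Those are 836 and 2961 genes, and scaling by median-of-ratios size factors instead made them 1454 and 1700. The median gene stood at -0.51 in this comparison, so Fcgr3 was at 0.27 and Fcgr2b at -0.31 relative to the median gene, and the sign of Fcgr3 depends on this scaling. Relative to the median gene, Fcgr4 was at 3.45, Fcgr1 at 2.36 and Fcer1g at 0.98. Read apart, Fcgr4 was at 0.86 in monocytes and 3.49 in macrophages, and Fcgr1 at 0.52 and 1.50. Different macrophage classes stood behind the latter values, since TAM_H2Ab1 made up 385 of 439 macrophages in IRF3/7 and 19 of 7475 in CTRL. Within TAM_H2Ab1, Fcgr4 was at 3254 CPM (3176 to 3334) in IRF3/7 and 2192 (1934 to 2474) in the 19 CTRL cells, and Fcgr1 at 1795 (1737 to 1854) and 1732 (1504 to 1984), which overlapped.

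In COX2i against CTRL, Fcgr2b was the member that differed most, at -0.48 (-0.49 to -0.47). Fcgr4 was at 0.29 (0.26 to 0.32) and Fcgr1 at 0.28 (0.26 to 0.30), Fcer1g at 0.04 (0.03 to 0.05), and the interval of Fcgr3 held 0 (-0.01 to 0.02). No member of 5 passed a log2 ratio of 1, against 1.37% of genes higher and 2.55% lower, and the median gene was at 0.03. A log2 ratio of -0.48 placed Fcgr2b at the 9.45th percentile of all genes. Weighted to the class mix of CTRL over 5 classes, Fcgr2b was at -0.36, Fcgr4 at 0.21 and Fcgr1 at 0.20, and in monocytes alone the interval of Fcgr1 held 0 (-0.15 to 0.05).

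In COX2i + 5-AZA against CTRL, Fcgr4 was at 2.14 (2.12 to 2.17), Fcgr1 at 0.70 (0.68 to 0.72), Fcgr3 at 0.45 (0.43 to 0.46), Fcer1g at 0.20 (0.19 to 0.20) and Fcgr2b at -0.16 (-0.17 to -0.15). Past a log2 ratio of 1 was 1 of 5 members, Fcgr4, against 4.42% of genes higher and 7.64% lower. The median gene was at -0.15, and Fcgr2b was at -0.01 relative to it. At the class mix of CTRL over 5 classes, Fcgr4 was at 1.20, Fcgr3 at 0.42, Fcgr1 at 0.26, Fcer1g at 0.03 and Fcgr2b at -0.02. The direction of Fcgr1 turned within some cells, and it was lower than in CTRL in monocytes (-0.32, -0.41 to -0.23), in Infl_Mono (-0.29) and in TAM_Spp1 (-0.31). Against COX2i alone, adding 5-azacytidine went with Fcgr4 at 1.85 (1.83 to 1.88), Fcgr3 at 0.44 (0.43 to 0.46), Fcgr1 at 0.42 (0.41 to 0.44), Fcgr2b at 0.32 (0.31 to 0.34) and Fcer1g at 0.16 (0.15 to 0.17). At the class mix of COX2i over 5 classes these were 1.12, 0.37, 0.11, 0.31 and 0.02 in that order, and in monocytes alone Fcgr1 was lower, at -0.27 (-0.32 to -0.22). Again 1 of 5 members, Fcgr4, passed, against 4.58% of genes higher and 7.34% lower, and the median gene was at -0.19. The comparisons with CTRL share that library, and the last shares COX2i + 5-AZA and COX2i with them.

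**Figure D2:**
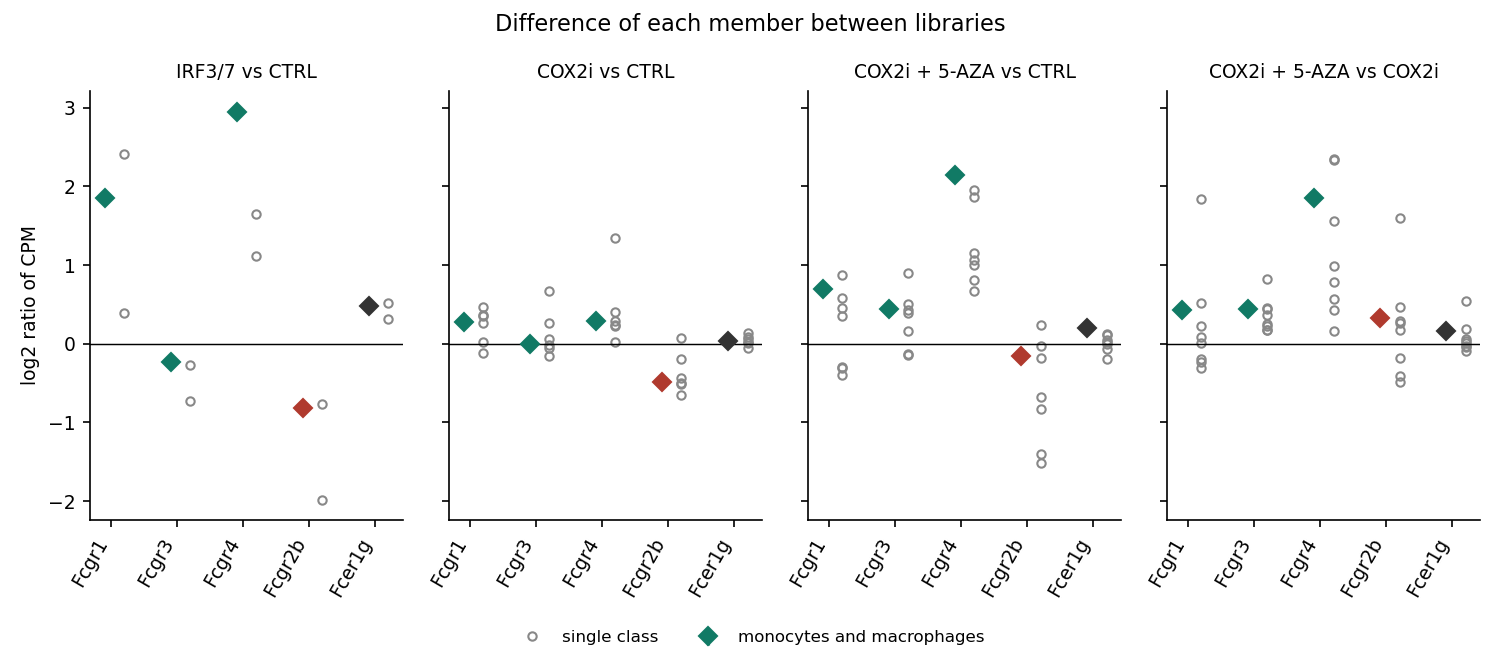
Log2 ratio of CPM of each member in the 4 comparisons. Filled diamonds are monocytes and macrophages together (green for activating receptors, red for Fcgr2b, black for Fcer1g) with exact 95% counting intervals that are mostly smaller than the symbol, and open circles are single classes with at least 50 cells in both libraries, Myofibrobl left out. Fcgr4 lies above 0 in each comparison and class drawn, though its interval holds 0 in TAM_C1q for COX2i against CTRL, and the diamond of Fcgr2b is lowest for IRF3/7 against CTRL, at -0.81.

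The balance of the receptors was summarised as A:I, the log2 ratio of the UMIs of Fcgr1, Fcgr3 and Fcgr4 together to those of Fcgr2b. Because probe efficiencies differ, its distance from 0 has no meaning, and only differences are read. In monocytes and macrophages, A:I was 0.24 (0.22 to 0.25) in CTRL, 0.84 (0.83 to 0.85) in COX2i, 1.26 (1.25 to 1.27) in COX2i + 5-AZA and 2.36 (2.34 to 2.39) in IRF3/7. CTRL was lowest and IRF3/7 highest, with no overlap of counting intervals. The difference was 2.13 (2.10 to 2.15) for IRF3/7 against CTRL, 0.60 (0.58 to 0.62) for COX2i against CTRL, 1.02 (1.01 to 1.04) for COX2i + 5-AZA against CTRL and 0.42 (0.40 to 0.44) for COX2i + 5-AZA against COX2i. Fcgr2b supplied 45.9% of the receptor UMIs in CTRL, 35.9% in COX2i, 29.5% in COX2i + 5-AZA and 16.3% in IRF3/7. The share of Fcgr4 was 6.83%, 9.09%, 21.6% and 32.8% in the same order.

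Part of these differences went with the mix of classes. Weighting each library to the mix of the reference library, over classes with at least 50 cells in both, gave 0.47 for COX2i against CTRL and 0.53 for COX2i + 5-AZA against CTRL, over 5 classes each. COX2i + 5-AZA against COX2i became 0.12, also over 5 classes. IRF3/7 against CTRL became 1.18, but it rested on 1 class, Infl_Mono. Monocytes and macrophages were also read apart. In monocytes A:I was 1.21 (1.11 to 1.31) in CTRL (139 cells), 1.72 (1.702 to 1.74) in COX2i + 5-AZA, 1.90 (1.84 to 1.96) in COX2i and 2.40 (2.37 to 2.42) in IRF3/7. In macrophages it was 0.22 (0.21 to 0.23) in CTRL, 0.78 (0.77 to 0.79) in COX2i, 0.95 (0.94 to 0.96) in COX2i + 5-AZA and 2.17 (2.11 to 2.22) in IRF3/7. COX2i + 5-AZA was therefore below COX2i in monocytes, by -0.18 (-0.25 to -0.12), and above it in macrophages, by 0.17 (0.15 to 0.19). This split does not remove the class mix, because different classes held most of each kind. Infl_Mono were 93 of 139 monocytes in CTRL and 4335 of 4596 in IRF3/7, while Monocyte_1 were 394 of 558 in COX2i and 3640 of 4684 in COX2i + 5-AZA. Among macrophages, TAM_C1q was the most numerous class in CTRL (3199 cells) and COX2i + 5-AZA (1379 cells), TAM_cycling in COX2i (3164 cells) and TAM_H2Ab1 in IRF3/7 (385 cells). Within TAM_H2Ab1, A:I was 1.64 (1.42 to 1.87) in the 19 cells of CTRL and 2.20 (2.14 to 2.26) in IRF3/7, a narrower gap than between all macrophages of these libraries.

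**Figure D3:**
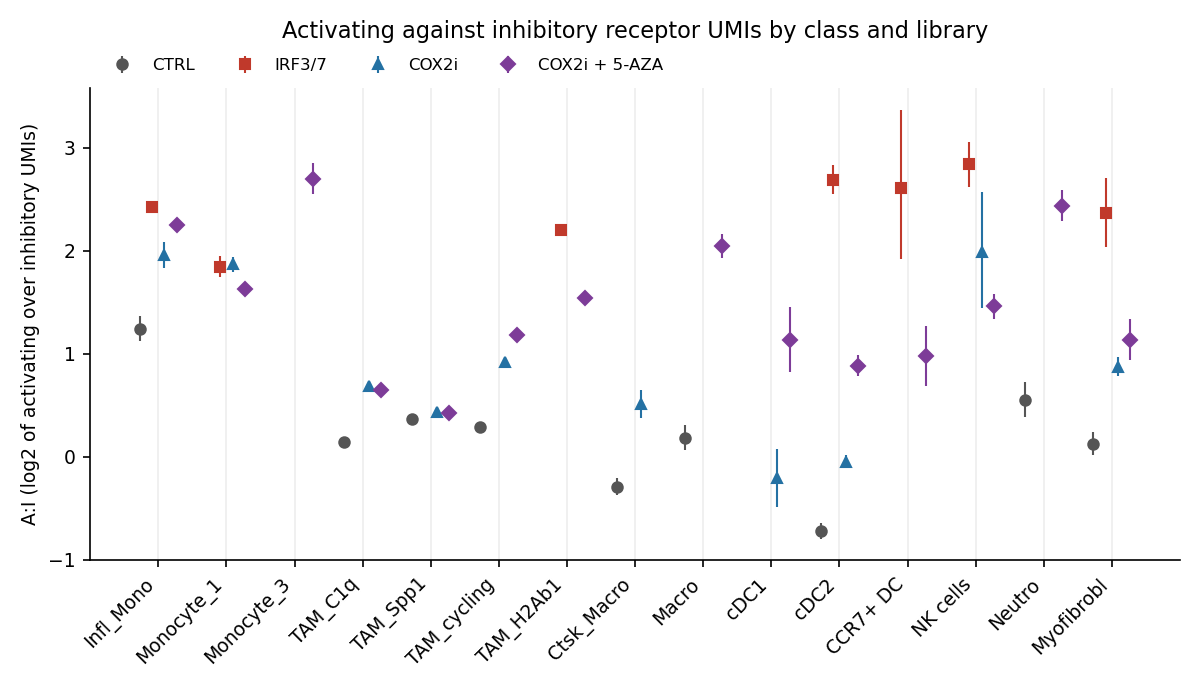
A:I, the log2 ratio of activating to inhibitory receptor UMIs, for each annotated class with at least 50 cells in a library. Points are A:I and bars exact 95% counting intervals; cDC2 run from -0.72 in CTRL to 2.69 in IRF3/7, while TAM_Spp1 lie between 0.36 and 0.43 in the 3 libraries shown for that class.

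The classes are the authors' annotation from clusters in which the members took part, and the study lists Fcgr4 among the markers of TAM_H2Ab1 and of monocyte clusters, so the order of classes is a description. In CTRL, Fcgr1 was highest in inflammatory monocytes (Infl_Mono, 1716 CPM), followed by TAM_Spp1 (808). TAM_C1q (585), Macro (573), neutrophils (564) and TAM_cycling (535) followed, neighbours overlapping in their counting intervals. Below these came cDC2 (249.9), Ctsk_Macro (99.6) and Myofibrobl (37.0). Fcgr3 in CTRL ran from 1530 CPM in TAM_C1q to 1126 in TAM_cycling over 6 classes whose neighbours overlapped, and cDC2 (367) and Ctsk_Macro (358) stood below them. Fcgr2b in CTRL was highest in TAM_C1q (2186) and Macro (2132), which overlapped, and it remained high in cDC2 (1391). Fcgr4 in CTRL was highest in Infl_Mono (896) and Macro (668) and lowest, apart from Myofibrobl, in Ctsk_Macro (80.8).

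Among classes with at least 50 cells, Fcgr4 reached its highest levels in TAM_H2Ab1 of IRF3/7, at 3254 CPM in 385 cells, and in Monocyte_3 of COX2i + 5-AZA, at 3071 CPM in 280 cells. Monocyte_3 carried markers of patrolling monocytes, with Ace, Treml4, Itgal and Nr4a1 summing to 5142 CPM in COX2i + 5-AZA against 652 CPM in all monocytes and macrophages of that library. Cx3cr1 of that marker list was not analysed here. Monocyte_3 also had the highest Fcer1g of its library, at 5177 CPM, while its Fcgr3 (915) and Fcgr2b (718) were below those of Monocyte_1 (1816 and 1594). Its cells were shallow, and per cell Fcgr3 was at 1.86 UMIs and Fcgr2b at 1.46, below the 2.13 and 1.89 of the non-immune Myofibrobl class of that library. Its A:I of 2.70 (2.55 to 2.85) was the highest point value of the COX2i + 5-AZA library, and neutrophils at 2.44 (2.28 to 2.59) overlapped with it. Fcgr1 was highest in Infl_Mono of IRF3/7, at 2250 CPM in 4335 cells. In COX2i + 5-AZA, Fcgr3 was highest in TAM_C1q (2009) and TAM_H2Ab1 (1952), which overlapped, and Fcgr2b in TAM_Spp1 (2184) and TAM_C1q (2135), which overlapped too. TAM_C1q is thus a class in which Fcgr3 and Fcgr2b were both high.

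Within single classes, IRF3/7 could be set against CTRL in Infl_Mono and cDC2. In Infl_Mono (4335 against 93 cells), Fcgr4 was at a log2 ratio of 1.11 (0.98 to 1.25), Fcgr1 at 0.39 (0.29 to 0.49), Fcgr3 at -0.27 (-0.38 to -0.16) and Fcgr2b at -0.76 (-0.86 to -0.66). The A:I difference was 1.18 (1.06 to 1.31). The monocyte markers Plac8, Ccr2, Chil3 and Ms4a4c summed to 15329 CPM in Infl_Mono of IRF3/7 and 5811 in CTRL, and the macrophage markers to 9121 and 48333 CPM. Their part in the Infl_Mono values was not tested.

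The cDC2, dendritic cells that present antigen to CD4+ T cells, had the widest spread of balance. Fcgr2b was at 1391 CPM (1348 to 1436) in 645 CTRL cells, 1220 (1183 to 1258) in 666 COX2i cells, 874 (824 to 926) in 261 COX2i + 5-AZA cells and 350.1 (319 to 384) in 390 IRF3/7 cells. Fcgr1 ran the other way, from 249.9 (232 to 269) in CTRL over 319.8 (301 to 340) in COX2i and 457 (421 to 495) in COX2i + 5-AZA to 1327 (1265 to 1391) in IRF3/7. The counting intervals of neither receptor overlapped between any pair of libraries. How many other genes did the same was not counted, so this is not particular to these receptors. A:I in cDC2 was -0.72 (-0.80 to -0.65) in CTRL, -0.05 (-0.11 to 0.01) in COX2i, 0.89 (0.78 to 0.99) in COX2i + 5-AZA and 2.69 (2.55 to 2.84) in IRF3/7, a difference of 3.41 (3.25 to 3.58) between IRF3/7 and CTRL. Fcgr3 did not follow that order, at 367 CPM in CTRL, 582 in COX2i, 682 in COX2i + 5-AZA and 221 in IRF3/7.

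Monocyte markers moved with this result. Plac8, Ccr2, Chil3 and Ms4a4c together were at 1044 CPM in cDC2 of CTRL, 1209 in COX2i, 2559 in COX2i + 5-AZA and 7240 in IRF3/7, with none of the 4 at 0. The cDC2 markers Cd209a, H2-Ab1, Clec10a and Cd74 summed to 58681, 57336, 46043 and 43206 CPM in the same order. Cd209a alone was at 334, 581, 151 and 83.9 CPM. Macrophage markers were at 1657, 1679, 1680 and 741 CPM. The part of monocyte-derived cells in the class was not tested.

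For COX2i against CTRL, A:I was higher in all 6 classes with enough cells, from 0.07 (0.03 to 0.11) in TAM_Spp1 to 0.80 (0.64 to 0.96) in Ctsk_Macro. Fcgr2b was lower in 5 of the 6, from -0.65 in Infl_Mono to -0.19 in cDC2, and higher in TAM_Spp1 at 0.07 (0.04 to 0.10). Fcgr4 differed most in Ctsk_Macro, at 1.35 (1.12 to 1.58). The interval of Fcgr4 held 0 in TAM_C1q (-0.04 to 0.07), where Fcgr2b was at -0.51 (-0.53 to -0.49).

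For COX2i + 5-AZA against CTRL, A:I was higher in all 7 classes, from 0.07 (0.02 to 0.11) in TAM_Spp1 to 1.86 (1.69 to 2.03) in Macro and 1.88 (1.65 to 2.11) in neutrophils. Fcgr4 was higher in all 7, from 0.67 in TAM_Spp1 to 1.96 in TAM_cycling. Fcgr2b was lower in 6 of the 7, with -1.40 (-1.53 to -1.26) in Macro and -1.52 (-1.71 to -1.33) in neutrophils. The neutrophil class also changed in its markers. S100a8, S100a9, Csf3r, Cxcr2 and Retnlg summed to 25584 CPM in CTRL and 94138 in COX2i + 5-AZA, and the macrophage markers to 33355 and 4439 CPM. Their part in the neutrophil values was not tested. Fcgr2b in neutrophils of COX2i + 5-AZA was near background, at 2.07 UMIs per cell beside 1.89 in Myofibrobl.

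Adding 5-azacytidine to celecoxib went with higher Fcgr4 and higher Fcgr3 in all 8 classes that could be compared. Fcgr4 ranged from 0.16 (0.10 to 0.21) in Monocyte_1 to 2.35 (1.69 to 3.07) in cDC1, and Fcgr3 from 0.17 in Monocyte_1 to 0.83 in cDC1. The cDC1 values rest on 79 and 60 cells near the background of their libraries. Fcgr4 was at 0.304 UMIs per cDC1 in COX2i and 1.47 in COX2i + 5-AZA, beside 0.464 and 1.18 per cell of the non-immune Myofibrobl class, and Fcgr3 was at 1.29 and 2.17 beside 1.50 and 2.13. The Fcgr4 ratio of 2.33 in NK cells was near background too, at 0.36 and 1.54 UMIs per cell beside the same 0.464 and 1.18. Fcgr2b was higher in 5 and lower in 3, so that A:I was higher in 4 classes, lower in 2 and held 0 in 2. It was higher in cDC1 by 1.34 (0.91 to 1.77), in cDC2 by 0.94 (0.81 to 1.06), in Infl_Mono by 0.30 (0.16 to 0.43) and in TAM_cycling by 0.27 (0.24 to 0.30). It was lower in Monocyte_1 by -0.24 (-0.31 to -0.17) and in TAM_C1q by -0.03 (-0.07 to -0.004). In TAM_Spp1, A:I was 0.36 in CTRL, 0.43 in COX2i and 0.43 in COX2i + 5-AZA, the narrowest span of the classes measured in these 3 libraries.

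NK cells use Fcgr3 to kill antibody-coated targets. In NK cells Fcgr3 was at 408 CPM in COX2i (50 cells), 552 in COX2i + 5-AZA (437 cells) and 204 in IRF3/7 (568 cells), and CTRL had only 11 NK cells. It supplied 59.8% of the receptor UMIs of NK cells in COX2i, 35.3% in COX2i + 5-AZA and 25.3% in IRF3/7. Fcgr1 and Fcgr4, which are known from myeloid cells, supplied 30.0% and 32.4% in IRF3/7, beside 34.3% and 32.6% over all cells of that library. A UMI of Fcgr4 was found in 22.9% of IRF3/7 NK cells (median depth 2674.5 UMIs) and in 38.4% of Myofibrobl cells of that library (median 20862.5), and after thinning each cell to 2000 UMIs in 17.8% and 12.4%. Per cell, NK cells of IRF3/7 held 0.857 UMIs of Fcgr1, 0.926 of Fcgr4 and 0.350 of Fcgr2b, each below the 0.988, 1.20 and 0.517 of Myofibrobl, while Fcgr3 was at 0.722 beside 0.471. By CPM, Fcgr1 was at 242 beside 37.9, Fcgr4 at 262 beside 46.2 and Fcgr2b at 99.0 beside 19.8. Whether these 3 were above background therefore depends on the measure. In the celecoxib libraries Fcgr3 was at 2.08 UMIs per NK cell in COX2i and 2.39 in COX2i + 5-AZA, beside 1.50 and 2.13 in Myofibrobl. Monocyte markers summed to 4741 CPM and NK cell markers to 5129 CPM in the NK class of IRF3/7. Fcer1g, which NK cells use with several receptors, was at 1595 CPM in COX2i, 2330 in COX2i + 5-AZA and 2674 in IRF3/7.

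Mast cells were few, at 38 in CTRL, 13 in COX2i, 23 in COX2i + 5-AZA and 3 in IRF3/7. They carried Fcer1g, the chain of their IgE receptor, at 2495 to 3112 CPM and Fcgr3 at 353 to 446 CPM, while Fcgr1 did not exceed 47.1 CPM and Fcgr4 did not exceed 56.7 CPM. CCR7+ DC (DC3 in the annotation) were near background for Fcgr1 in UMIs per cell. They held 1.08 in IRF3/7 (66 cells) and 0.874 in COX2i + 5-AZA (87 cells), beside 0.988 and 0.844 in Myofibrobl. By CPM they were at 341 and 189 beside 37.9 and 48.0. The 16 annotated CD8+ T cells were too few to be read.

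The non-immune Myofibrobl cells should lack the receptors, and their values were taken as background. Each receptor was between 18.1 and 129 CPM there, and Fcer1g between 86.3 and 311 CPM. Their A:I was 0.13 (0.02 to 0.24) in CTRL, 0.87 (0.78 to 0.97) in COX2i, 1.14 (0.94 to 1.34) in COX2i + 5-AZA and 2.36 (2.03 to 2.71) in IRF3/7. Over all cells of the same libraries it was 0.21, 0.81, 1.26 and 2.38. Myofibrobl cells were deeper than the immune cells, which lowers their background on the CPM scale and after thinning, so UMIs per cell are also given. In cDC2, Fcgr1 was at 1.08 UMIs per cell in CTRL and 4.46 in IRF3/7, beside 0.644 and 0.988 in Myofibrobl, and Fcgr2b at 6.01 and 1.18 beside 2.24 and 0.517. Fcgr3 in cDC2 was closer to background, at 1.58 and 0.744 beside 1.48 and 0.471.

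Detection in single cells was compared after thinning each cell to 2000 UMIs, leaving out shallower cells (212 of 7614 monocytes and macrophages in CTRL, 975 of 5035 in IRF3/7, 187 of 7378 in COX2i and 492 of 8801 in COX2i + 5-AZA). Most cells held UMIs of both kinds of receptor, at 87.0% (86.2 to 87.8) in CTRL, 81.8% (80.9 to 82.7) in COX2i, 85.9% (85.1 to 86.6) in COX2i + 5-AZA and 74.7% (73.3 to 76.0) in IRF3/7. Cells with activating receptors only were 7.23% (6.65 to 7.84) in CTRL, 14.5% (13.7 to 15.4) in COX2i, 13.2% (12.4 to 13.9) in COX2i + 5-AZA and 25.0% (23.7 to 26.4) in IRF3/7. Cells with Fcgr2b only were 3.62% in CTRL, 2.31% in COX2i, 0.578% in COX2i + 5-AZA and 0.0493% (2 cells) in IRF3/7.

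In cDC2, Fcgr2b alone was found in 24.5% (21.1 to 28.1) of CTRL cells, 13.6% (11.0 to 16.5) of COX2i cells, 6.53% (3.78 to 10.4) of COX2i + 5-AZA cells and 0.583% (0.0707 to 2.09) of IRF3/7 cells. Activating receptors alone were found in 10.0% (7.75 to 12.7), 14.7% (12.04 to 17.7), 25.3% (20.0 to 31.2) and 58.6% (53.2 to 63.9) in the same order. Background cells showed a smaller difference of the same direction. In Myofibrobl thinned to that depth, Fcgr2b alone was found in 5.73% of cells in CTRL and 2.35% in IRF3/7, and activating receptors alone in 7.02% and 15.3%. The part of background in the cDC2 shares was not tested.

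**Figure D4:**
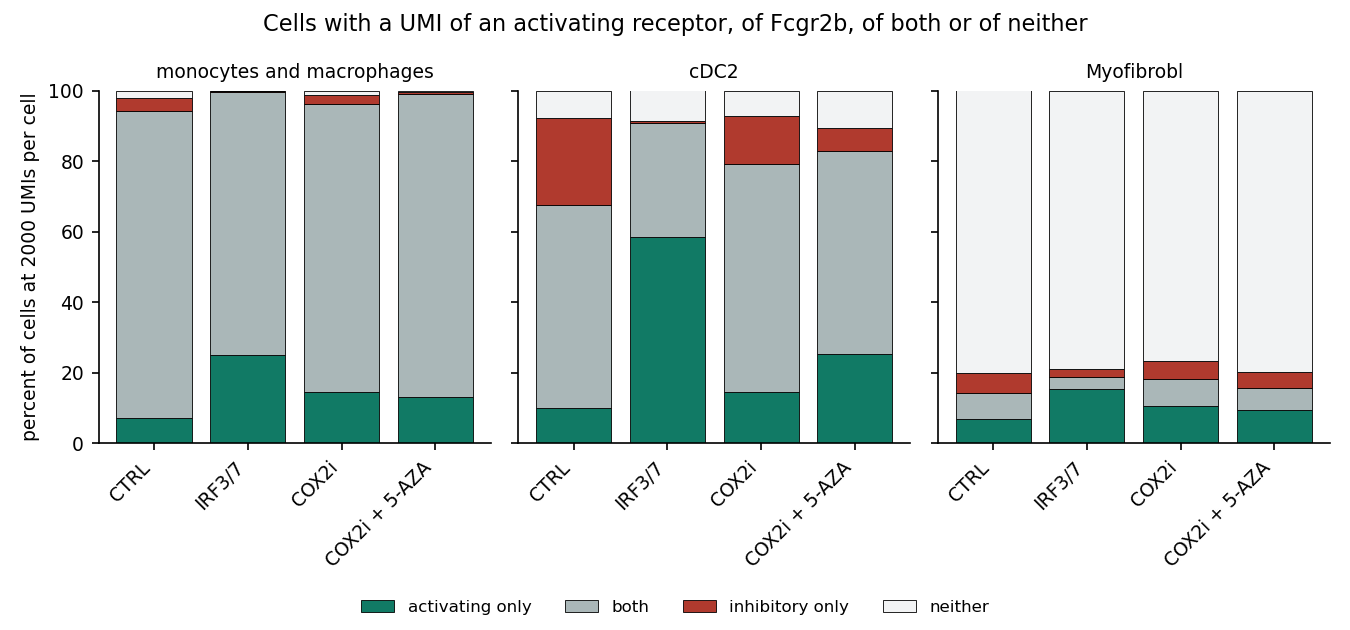
Percent of cells, each thinned to 2000 UMIs, with a UMI of an activating receptor only, of both kinds, of Fcgr2b only or of neither, by library, in monocytes and macrophages, cDC2 and the non-immune Myofibrobl class. Stacked bars sum to 100 percent, and activating-only cDC2 go from 10.0% in CTRL to 58.6% in IRF3/7.

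Fcer1g is needed to bring Fcgr1, Fcgr3 and Fcgr4 to the surface, so its UMIs were set against theirs. In monocytes and macrophages there were 1.48 Fcer1g UMIs per activating receptor UMI in CTRL, 1.39 in COX2i, 0.929 in COX2i + 5-AZA and 0.826 in IRF3/7. The log2 difference was -0.84 (-0.86 to -0.82) for IRF3/7, -0.67 (-0.68 to -0.66) for COX2i + 5-AZA and -0.08 (-0.10 to -0.07) for COX2i, each against CTRL. Within classes these differences varied. In the Infl_Mono class the same difference was -0.11 (-0.21 to -0.02) for IRF3/7 against CTRL, and in cDC2 -0.90 (-1.001 to -0.80). For COX2i + 5-AZA it held 0 in monocytes (-0.12 to 0.04) and in Infl_Mono (-0.15 to 0.05), and it ran from -0.20 in TAM_Spp1 to -1.003 in cDC2 over the other 6 immune classes. For COX2i it had the opposite direction in TAM_C1q, at 0.03 (0.0046 to 0.05), held 0 in Infl_Mono and TAM_Spp1, and was lower in TAM_cycling (-0.25), Ctsk_Macro (-0.29) and cDC2 (-0.46).

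The genes with patterns most like the members were sought over the 40 class and library combinations with at least 50 cells, by Pearson r of log2(CPM + 1) among 10292 genes with at least 20 CPM in 1 combination. Combinations of 1 library share its depth and its RNA from other cells, and r is given as a description. For Fcgr1 these were Ms4a6c (0.96), Ms4a6b (0.94) and Lst1 (0.94). For Fcgr4 they were Cybb (0.93), the membrane subunit of the phagocyte oxidase, Lst1 (0.93) and Klra2 (0.93). For Fcgr3 they were Ctsc (0.94), Msr1 (0.93) and Itgam (0.93), an integrin chain of complement receptor 3. For Fcgr2b they were Itgam (0.94), Fcgr3 (0.92) and Csf1r (0.92), the receptor for the macrophage growth factor CSF1. For Fcer1g they were Fyb (0.95), Lcp2 (0.95), both adaptors of ITAM signalling, and Cln3 (0.94). Among the members, Fcgr3 with Fcgr2b had the highest r (0.92) and Fcgr4 with Fcgr2b the lowest (0.62). The part of the similar sequences of Fcgr3 and Fcgr2b in their r was not tested.

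Genes of the pathway were read from fixed lists in monocytes and macrophages, by how many passed a log2 ratio of 1 among those with enough UMIs. Of all genes, 8.22% were that much higher and 29.1% that much lower in IRF3/7 against CTRL. The shares were 1.37% and 2.55% for COX2i and 4.42% and 7.64% for COX2i + 5-AZA, each against CTRL. For COX2i + 5-AZA against COX2i they were 4.58% and 7.34%. These shares stand beside each list count below. Of 26 genes that carry the activating signal, 3 were higher and 3 lower in IRF3/7 against CTRL, with a list median of 0.22 beside -0.51 for all genes. The kinase Fgr (394 against 98.7 CPM, 2.00) was higher, and Blnk (-2.50), Src (-2.20) and Plcg1 (-2.18) were lower. None of the 26 passed in COX2i against CTRL, where the median was 0.01. In COX2i + 5-AZA against CTRL, Malt1 (1.25) and Fgr (1.19) were among 3 higher and Blnk (-1.02) lower, with a median of -0.0029. Against COX2i, Malt1 was higher (1.59) and Blnk lower (-1.04), with a median of 0.13.

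The 12 genes of the inhibitory arm, Inpp5d and the phosphatase gene Ptpn6 among them, showed no gene past the fold in 3 comparisons (IRF3/7 and COX2i, each with CTRL, and COX2i + 5-AZA with COX2i), with medians of 0.15, 0.09 and -0.05. In COX2i + 5-AZA against CTRL the adaptor Dok2 alone passed (280.8 against 135 CPM, 1.06), with a median of 0.04. Of 21 genes of phagocytosis and the oxidase, Cybb alone passed, at 1.82 in IRF3/7 (712 against 202 CPM) and 1.52 in COX2i + 5-AZA against CTRL. None did between COX2i and CTRL, or between the celecoxib libraries. The 4 medians of that list were 0.05, 0.16, 0.12 and -0.02.

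Of 7 tested receptors that also pair with Fcer1g, 4 were higher and 2 lower in IRF3/7 against CTRL, with a median of 1.10. The osteoclast receptor Oscar was at 1.01 against 30.1 CPM (-4.90, -5.66 to -4.24), Clec4b1 at 2.83, Pilrb1 at 1.87 and Pira2 at 1.84. In COX2i against CTRL there were 1 higher and 2 lower (Clec4b1 1.37, Oscar -1.81, the Mincle partner Clec4d -1.704) with a median of -0.29. In COX2i + 5-AZA there were 2 higher and 1 lower against CTRL (Pilrb1 2.28, Pira2 1.12, Oscar -3.40) and 3 higher and 1 lower against COX2i (Pilrb1 1.72, Pira2 1.41, Clec4n 1.22, Oscar -1.58), with medians of 0.25 and 0.92.

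Among 13 other inhibitory receptors of myeloid cells, 4 were higher and 0 lower in IRF3/7 against CTRL, with a median of 0.58, beside 8.22% of all genes higher, 29.1% lower and a median of -0.51. They were Cd300lf (442 against 75.8 CPM, 2.54), Pirb (1025 against 294, 1.80), Cd300a (1.48) and Clec12a (1.06). In COX2i against CTRL, Cd300a was lower (-1.13) and none was higher, with a median of -0.05. In COX2i + 5-AZA there were 4 higher against CTRL (Clec12a 1.64, Cd300lf 1.32, Pilra 1.28, Lair1 1.11) and 3 against COX2i (Cd300a 1.48, Cd300lf 1.37, Pirb 1.20), with 0 lower and medians of 0.35 and 0.36.

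Of 7 other Fc receptors and Fc receptor-like genes tested in IRF3/7 against CTRL, 2 were higher and 3 lower, with a median of 0.11. Fcgrt, the neonatal Fc receptor that recycles IgG, was at 40.4 against 411 CPM (-3.34), and Fcrls, a gene of resident macrophages, at 17.6 against 2884 CPM (-7.36). Trim21, the cytosolic antibody receptor, was at 145.5 against 26.5 CPM (2.46). Fcrl5 had 656 UMIs in IRF3/7 and 1 in CTRL, a log2 ratio of 10.97 (8.49 to 16.28). Of 6 tested in the other comparisons, none passed in COX2i against CTRL, and Fcrls alone was lower in COX2i + 5-AZA, at -1.57 against CTRL and -1.80 against COX2i, with medians of 0.08, -0.21 and 0.17.

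Genes of immunoglobulins and B cells, which Rag2-/- hosts should lack, were low. Of 7 in the table, 2 had enough UMIs to be tested, Ighm and Cd79b. Ighm was at 55.8 CPM in IRF3/7, 42.4 in COX2i, 27.3 in COX2i + 5-AZA and 9.75 in CTRL, with log2 ratios of 2.52, 2.12 and 1.49 against CTRL, and Cd79b was lower at -1.48 in COX2i + 5-AZA against CTRL. None passed in COX2i + 5-AZA against COX2i. The medians of the pair were 1.40, 0.71, 0.0030 and -0.71. Transcripts of the IgG heavy chains, the ligands of the receptors, were not analysed here.

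Genes of the interferon responses were also read from fixed lists. Of 15 genes of the response to interferon-γ, the number higher than in CTRL was 15 for IRF3/7, 11 for COX2i and 15 for COX2i + 5-AZA, 14 were higher in COX2i + 5-AZA than in COX2i, and 0 were lower in each. The medians were 4.16, 1.25, 3.99 and 2.42. Leading genes were Serpina3g at 5.52, Socs1 at 5.09, Gbp4 at 4.97 and Iigp1 at 4.82 in IRF3/7, Cxcl9 at 2.17, Gbp2 at 2.07, Gbp4 at 2.00 and Iigp1 at 1.94 in COX2i, Serpina3g at 5.34 and Gbp4 at 4.86 in COX2i + 5-AZA against CTRL, and Nos2 at 3.82 and Serpina3g at 3.52 against COX2i. Of 14 genes of the type I interferon response, 13, 0, 12 and 11 were higher and 0 lower in the same order, with medians of 5.34, 0.40, 2.14 and 1.71. Ifi44 (6.69) and Isg15 (6.05) led in IRF3/7, and Ifi44 (3.25), Isg15 (3.05) and Irf7 (2.71) in COX2i + 5-AZA against CTRL. Over the 4 comparisons in that order, Fcgr1 was at 1.86, 0.28, 0.70 and 0.42, and Fcgr4 at 2.94, 0.29, 2.14 and 1.85. In monocytes of COX2i + 5-AZA alone, Fcgr1 was lower than in CTRL, at -0.32. The role of interferon in the receptor values was not tested.

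Of 13 genes linked to alternative activation, a state known for raised Fcgr2b in macrophages, 3 were higher and 7 lower in IRF3/7 against CTRL, with a median of -3.49. Lyve1 (-7.03), Mgl2 (-6.31, from 5 UMIs in IRF3/7), and the scavenger receptor Cd163 (-6.28) were lowest. In COX2i against CTRL, 2 were higher and 3 lower (Cd163 -2.39, Mgl2 1.92, Retnla 1.87, Lyve1 -1.65), with a median of 0.0038. In COX2i + 5-AZA, 4 were higher and 2 lower against CTRL (Retnla 3.36, Cd163 -3.05, Lyve1 -2.84, Mgl2 2.83) and 2 higher and 1 lower against COX2i (Chil3 2.36, Retnla 1.49, Lyve1 -1.19), with medians of 0.02 and 0.45.

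The members on chromosome 1 were also read with their neighbours. The annotation places 67 other genes within 500 kb of them, of which 32 were in the table. In IRF3/7 against CTRL, 4 of 25 tested neighbours were higher and 2 lower, with a median of 0.13. Of all genes, 8.22% were higher and 29.1% lower. Slamf7, a receptor of the SLAM family, was at 5.12, Cd244a at 1.69, Olfml2b at -2.59 and F11r at 1.37. None of 28 passed in COX2i against CTRL (median 0.02). In COX2i + 5-AZA, Slamf7 alone of 26 passed, at 3.20 against CTRL and 2.44 against COX2i, with medians of 0.03 and -0.03. Fcgr4 lies between Fcgr2b and Fcgr3 in this cluster, and in IRF3/7 and COX2i + 5-AZA it differed from CTRL more than either of them.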

How the data were processed

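CD45+ cells from 4 pools of 3 tumours were fixed for 22 h and profiled with a probe-based single-cell assay. The authors aligned reads with Cell Ranger 7.1.0 to the mm10 genome, filtered cells and genes, and deposited raw UMI counts per gene and cell together with a table of cell annotations, both used as deposited. Doublets were not called here. UMIs were summed per library and class (the authors' 17 classes, 9 of them monocytes or macrophages) and divided by the summed total to give CPM. Intervals at 95% were exact Poisson for CPM, Clopper-Pearson for shares and exact conditional for ratios, and counts of 0 were replaced by 3, the floor. With 1 library per group, no test between groups was made. Genes counted past the fold had a log2 ratio of at least 1 and at least 200 UMIs in both libraries together. The scripts were tested on simulated data. Named genes were the 5 members, up to 4 genes past the fold per list by the size of the ratio, and the 3 genes most alike to each member. Some items are not reported here, though the counts of each list include all its genes. The members and lists were chosen with earlier results of these data known. Alternatives covered the cells used, class mix, depth, weighting, the receptors summed, scaling and the UMI minimum. Python 3.11.15, numpy 2.4.6, scipy 1.17.1, pandas 2.3.3, matplotlib 3.10.9 and biopython 1.88 were used.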

Additional observations from a re-analysis of the deposited data

Results flagged for a closer look

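Counting classes whose interval left out 0, a member or A:I had classes on both sides of 0 in 11 of 24 cases under the same comparison. In 4 of these the highest class was at 0.4 or more and the lowest at -0.2 or less, limits that were set with the values known. The differences between these classes were not tested. For Fcgr1 in COX2i + 5-AZA against CTRL, the log2 ratio was 0.87 in cDC2 and -0.39 in neutrophils, a gap of 1.26, with 4 classes above 0 and 3 below. For Fcgr1 in COX2i + 5-AZA against COX2i, it was 1.84 in NK cells and -0.31 in Infl_Mono, a gap of 2.15, with 4 classes above 0 and 3 below. For Fcgr2b in the same comparison, it was 1.60 in NK cells and -0.48 in cDC2, a gap of 2.09, with 5 classes above 0 and 3 below. The A:I difference in that comparison was 1.34 in cDC1 and -0.24 in Monocyte_1, a gap of 1.58, with 4 classes above 0 and 2 below. The NK values rest on 50 cells in COX2i, the cDC1 values on 79 in COX2i and 60 in COX2i + 5-AZA, and the neutrophil value on 65 in CTRL. The NK values also lie near the background of their libraries. Fcgr1 was at 0.340 UMIs per NK cell in COX2i and 1.04 in COX2i + 5-AZA, beside 0.966 and 0.844 per cell of the non-immune Myofibrobl class, and Fcgr2b at 0.70 and 1.81 beside 1.60 and 1.89. In cDC1, Fcgr4 was at 0.304 and 1.47 UMIs per cell beside 0.464 and 1.18 in Myofibrobl.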

How the results depend on the processing

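The 4 differences in A:I kept their direction under each alternative that was run. They are given here in the order IRF3/7, COX2i and COX2i + 5-AZA against CTRL, then COX2i + 5-AZA against COX2i. They were 3.11, 0.76, 1.48 and 0.72 without Fcgr3, and 2.34, 0.67, 1.25 and 0.58 with the geometric mean of the activating receptors. They were 1.18, 0.47, 0.53 and 0.12 at the class mix of the reference library, the first over 1 class. With each cell thinned to 2000 UMIs they were 2.05, 0.56, 1.07 and 0.50, as means of the CPM of each cell 2.02, 0.55, 1.09 and 0.54, and in cells with more than 2000 genes 2.18, 0.62, 1.00 and 0.38. Over all cells, with and without Myofibrobl, they were 2.17 for IRF3/7 and 1.05 for COX2i + 5-AZA against CTRL, and 0.46 for COX2i + 5-AZA against COX2i. Of 40 such values 30 moved by more than the counting interval and 10 did not. Of the member ratios, 120 moved, 59 did not and 1 turned: Fcgr3 in IRF3/7 against CTRL was 0.27 with median-of-ratios size factors. Fcgr3 in COX2i against CTRL, whose counting interval held 0, also changed sign under 4 alternatives, the lowest -0.03 with those factors and -0.01 without cells in shared droplets. In IRF3/7 against CTRL, those factors gave 1454 genes higher and 1700 lower past the fold. With no UMI minimum there were 1461 higher in IRF3/7 against CTRL, 345 higher and 750 lower in COX2i against CTRL, 787 and 1534 in COX2i + 5-AZA against CTRL, and 897 and 1299 in COX2i + 5-AZA against COX2i. A minimum of 50 UMIs gave 439 lower in COX2i against CTRL. The causes were not tested, beyond the larger number of genes counted at a lower minimum. No paired analysis was possible because each group was 1 library, and for the same reason no library could be left out. IRF3/7 was the shallowest library, which widens its intervals.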
